A study of Homo sapiens with 6 samples.

Results

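Glycolysis turns glucose into pyruvate and, in most tumour cells, onward into lactate, and the hypoxia response is the transcriptional programme that raises this route when oxygen is short. The 41 genes described here cover both. They were chosen by name, as the rows of the deposited expression table whose gene symbol is on a fixed list, and all 41 were found among 27887 gene rows. Of these, 39 averaged 1 FPKM or more across the 6 libraries and were tested, among 13409 genes tested in all. FPKM, fragments per kilobase of transcript per sequencing depth, is a level per transcript length, so genes can be compared with each other on it.

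The RNA came from KYSE450, an established line of human esophageal squamous cell carcinoma. The 3 mock libraries are labelled wild type and came from cells given a mock virus. The other 3 are labelled HMGB2 knockdown and came from cells given a virus coding for a short hairpin RNA (shHMGB2) against HMGB2, a chromatin protein that bends DNA. Every library is thus from virus-exposed cells of a single line kept in serum-containing medium; no hypoxic sample is among the 6, and the labels do not say whether replicates are separate cultures, so a p-value reads the spread among these libraries, which may be technical.

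In the hypoxia response a HIF alpha subunit (HIF1A or EPAS1) pairs with ARNT and switches on genes that carry its response element. In oxygen, EGLN enzymes hydroxylate the alpha subunit and VHL marks it for destruction, so control lies largely in protein stability, which an RNA measurement does not read. Glucose transporters, nearly every glycolytic enzyme, LDHA, PDK1 and VEGFA are classical targets, and squamous carcinomas are known for high glycolytic expression.

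The target was lower in each knockdown library. HMGB2 stood at 115.8, 111.4 and 108.6 FPKM in mock and 22.1, 24.5 and 27.8 FPKM in shHMGB2, with no overlap (log2 fold change -2.14 with SE 0.0843 and adjusted p = 0.000113 in limma). Relative depths (size factors) recovered from the deposited group signal spanned 1.88-fold, with shHMGB2 replicate 3 the smallest at 0.699, and no library was a copy of another. The 10 squamous epithelial markers summed to 6712 to 7979 FPKM. Of them KRT14, KRT6A and KRT17 fell (log2 fold changes -0.55, -0.54 and -0.41), SOX2 rose (0.42), and the other 6, with KRT5 and TP63, did not pass. Their sum was 7715 to 7979 FPKM in mock and 6712 to 7439 FPKM in shHMGB2, and the part of these markers in the results below was not tested. Fibroblast markers summed to 2.86 to 4.40 FPKM, endothelial markers to 0.46 to 0.69 FPKM and leukocyte markers to 0 to 0.24 FPKM. COL1A2, COL3A1, PTPRC, PECAM1 and KDR were at or below 0.03 FPKM in every library. In bulk RNA, fewer cells of a type and less RNA per cell cannot be told apart.

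ACGTG is a form of the core of the response element that HIF binds, and other forms of the core were not searched. Pieces of promoters that hold ACGTG are shown for members whose shHMGB2 libraries all stood below mock. RefSeq promoter windows on GRCh38.p14, from 250 bases before to 50 bases after a start site, were at hand for 35 of the 41 members, with 63 windows for them. VEGFA, VHL, NDRG1, BNIP3L, SLC2A3 and SLC16A1 were not matched. The core was searched on both strands, as ACGTG or CACGT, and the palindrome CACGTG, which is also the E-box read by MYC and USF proteins, was counted as 1 site. Below, 30-base pieces are printed 5′ to 3′ on the gene's strand, with the core in capitals. In ANKRD37, ENO2 and the first HK2 window, all bases printed lie in annotated exons, counted on either strand. The LDHA piece lies outside the longest exon-free stretch of its window. The PFKFB3 piece and the second HK2 piece lie in exon-free stretches.

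ANKRD37, chr4:185396676-185396705, plus strand: ctcCACGTGccagtgtttgtgtACGTGcgg

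HK2, chr2:74834066-74834095, plus strand: caatgggcgtgcgCACGTcactgatccgga

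HK2 at a second annotated start, chr2:74834964-74834993, plus strand: gattgctgcgccCACGTGggagggagcccc

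PFKFB3, chr10:6202812-6202841, plus strand: caccctcctcccCACGTGgaagggggctgg

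ENO2, chr12:6914449-6914478, plus strand: cacccgcgctcgtACGTGcgcctccgccgg

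LDHA, chr11:18394470-18394499, plus strand: gactcaCACGTGggttcccgCACGTccgcc

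In PGK1, 2 of the 3 sites in the promoter window lie in a stretch of 176 bases upstream of the start that holds no annotated exon, chrX:78103998-78104173, plus strand: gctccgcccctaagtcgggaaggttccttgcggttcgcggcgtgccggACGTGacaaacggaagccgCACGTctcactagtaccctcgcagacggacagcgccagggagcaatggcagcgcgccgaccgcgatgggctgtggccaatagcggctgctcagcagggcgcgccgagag

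The ANKRD37 piece holds 2 sites within its 30 bases, 136 to 165 bases before the start, and the LDHA piece also holds 2. The PFKFB3 piece belongs to an annotated start further into the gene. The window at the first PFKFB3 start, chr10:6144921, holds no site of the searched form. This form of the core was in at least 1 window of 19 of the 35 matched members, 54.3%, and of 24.9% of the 27305 genes in the table. Counted by window it was in 36.5% of the members' 63 windows and 21.4% of all 35116 windows. Base composition was not matched between these sets. A match describes letters in a window and not a bound site. No window of PKM or CA12, with log2 fold changes of -0.15 and -0.16, holds the searched form of the core. Of the 2 members past the threshold, ANKRD37 holds this form and VEGFA had no matched window. Members with fold changes near 0, such as GAPDH and GPI, hold it too.

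Few of these genes passed the threshold after HMGB2 knockdown, and a gene that did not pass is not thereby unchanged. In limma, 2 of the 39 tested members fell, ANKRD37 and VEGFA, 0 rose and 37 did not pass an adjusted p of 0.05. The share that fell, 5.13%, stands beside 3.45% of all tested genes, and the share that rose beside 3.30%; 6.75% of all genes passed in either direction. With mock replicate 1 left out the 2 members that passed were HK2 and VEGFA, and with any other single library left out 0 members passed. At an unadjusted p under 0.05, 8 members were lower and 2 were higher, beside 1488 lower and 2257 higher of all 13409 tested genes. The members' median log2 fold change was -0.03, with 25 below 0 and 14 above, against a median of 0.04 over all tested genes, of which 43.0% were below 0. The sign of such small values moved with the scaling: 29 of the 39 were below 0 under median-of-ratios scaling and 20 under quantile normalization. Every tested member's 95% interval lay within 1 log2 unit of 0, and 33 of the 39 lay within 0.5.

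**Figure D1:**
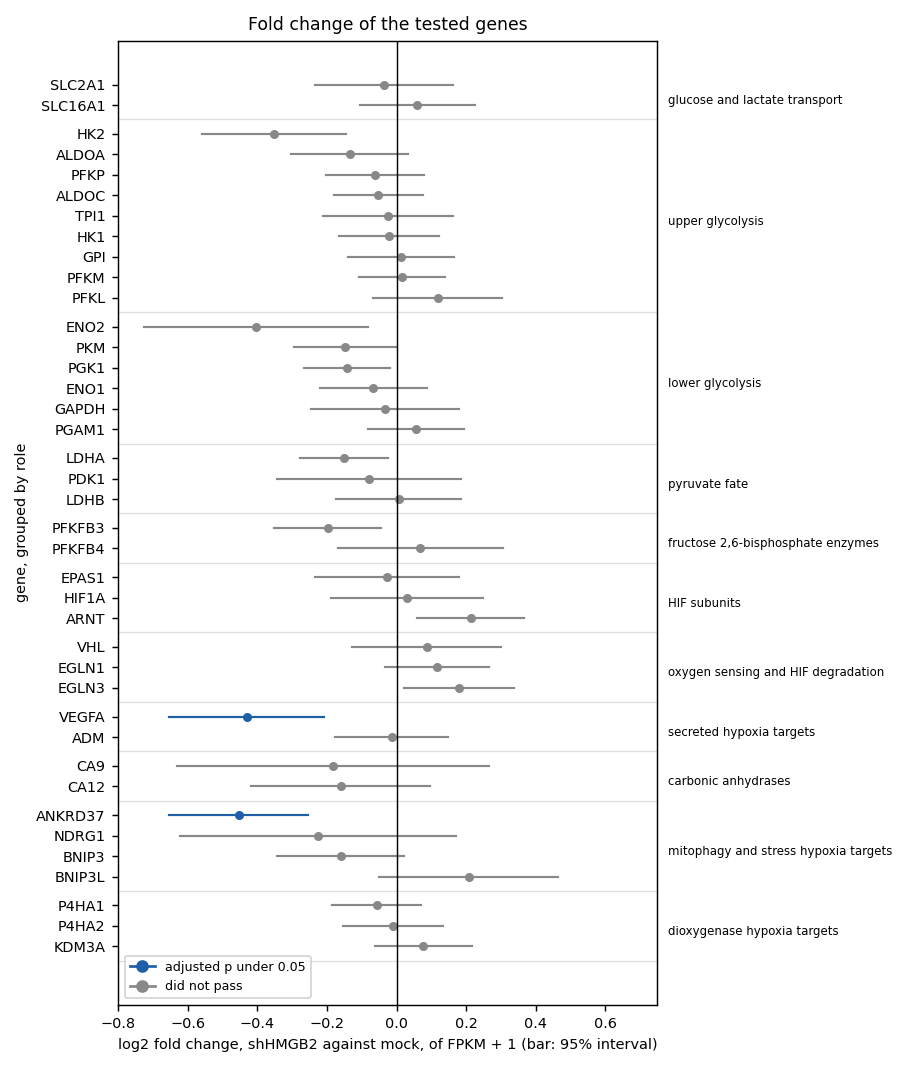
Log2 fold change of FPKM + 1, shHMGB2 against mock, for the 39 tested genes grouped by role; points are limma estimates from 3 libraries a group and bars are 95% intervals. ANKRD37 at -0.45 and VEGFA at -0.43 are the genes drawn in blue, past an adjusted p of 0.05, and most other intervals include 0.

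The authors' own test gave more calls among these genes. The authors' deposited table gives an adjusted p for 38 members, of which 8 were lower under 0.05 and 0 were higher. That is 21.1% lower, beside 9.23% of all 13585 genes with such a value, and 6.13% of those were higher. The 8 were HK2, VEGFA, PFKFB3, LDHA, PGK1, PKM, ALDOA and ENO2. The sources used here do not name that test. For ANKRD37 the authors' deposited table has no adjusted p and lists a log2 fold change of -0.68 with an unadjusted p of 0.164.

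Overlap of the libraries was also counted. For 8 members every shHMGB2 library was below every mock library: ANKRD37, VEGFA, HK2, ENO2, PFKFB3, LDHA, PGK1 and PKM. This is 20.5% of the tested members, beside 14.0% of all tested genes. For 4 members, ARNT, EGLN1, EGLN3 and KDM3A, every shHMGB2 library was above every mock library, 10.3% beside 21.6% of all genes.

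The genes differed widely in level. GAPDH, the dehydrogenase at the start of the energy-yielding steps, led with 6483 ± 552 FPKM in mock (SD, n = 3). ENO1, LDHB, TPI1, ALDOA and PKM followed at mock means of 1784, 1560, 1388, 1304 and 1209 FPKM. Of these neighbours LDHB and TPI1, TPI1 and ALDOA, and ALDOA and PKM overlapped in their ranges over the 6 libraries. The hexokinases HK1 and HK2 and the phosphofructokinase subunits had mock means between 32.3 and 114 FPKM. The lowest were SLC16A3 and SLC2A3, both under 1 FPKM in every library.

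**Figure D2:**
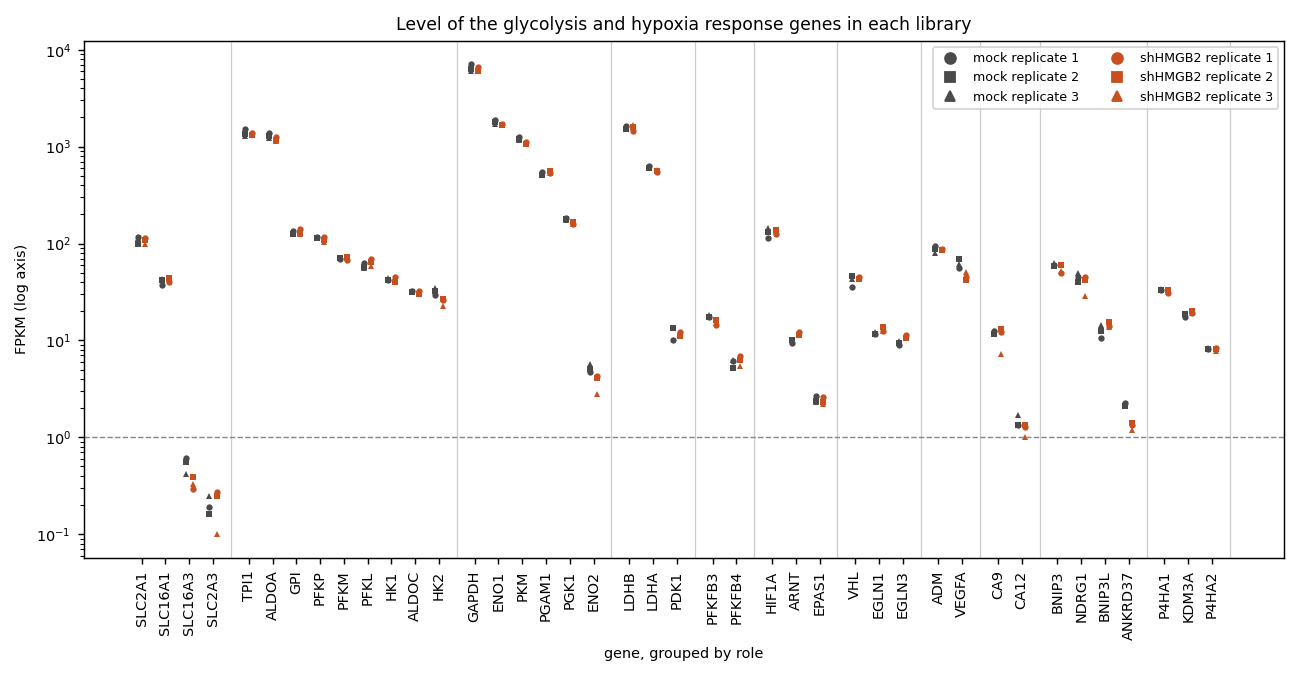
FPKM on a log axis for all 41 genes in each of the 6 libraries, grouped by role, with mock in grey and shHMGB2 in orange and 1 symbol per replicate. The dashed line marks 1 FPKM, and SLC16A3 and SLC2A3 are the genes below it; for most genes the points of both groups lie side by side at nearly the same height.

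Transport of glucose and lactate showed no called gene. SLC2A1, the main glucose transporter of epithelial tumours, had 116.5, 98.99 and 114.0 FPKM in mock and 114.6, 107.95 and 98.6 FPKM in shHMGB2, and the groups overlapped fully (95% interval of the log2 fold change -0.23 to 0.16). SLC16A1, a lactate and pyruvate transporter, had 37.1, 41.5 and 42.6 FPKM in mock and 39.99, 43.6 and 42.8 FPKM in shHMGB2 (adjusted p = 0.605 in limma). The lactate exporter SLC16A3 had 0.61, 0.56 and 0.42 FPKM in mock and 0.29, 0.39 and 0.33 FPKM in shHMGB2. Its groups did not overlap, but the level was under the filter and it was not tested. SLC2A3, a high-affinity glucose transporter, had 0.16 to 0.25 FPKM in mock and 0.10 to 0.27 FPKM in shHMGB2. Reads of SLC16A1 and of its antisense neighbour, whose mean was 7.54% of the SLC16A1 level, cannot be told apart without strand.

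Of the 17 enzymes from hexokinase to lactate dehydrogenase, 0 passed in limma. At an unadjusted p under 0.05, 5 of them were lower and 0 were higher, beside 1488 lower and 2257 higher of all 13409 tested genes. The authors' deposited table lists 6 lower, or 35.3%, and 0 higher at an adjusted p under 0.05. Of all genes with such a value, 9.23% were lower and 6.13% higher. Their median log2 fold change was -0.05, and 12 of the 17 were below 0, against 15 under median-of-ratios scaling and 9 under quantile normalization. Together the 17 made up 2.01, 1.98 and 1.97% of all FPKM in the mock libraries and 1.98, 1.97 and 1.92% in the shHMGB2 libraries. The group means of this share were 1.98 ± 0.0182% and 1.96 ± 0.0308% (SD, n = 3 each). They differed by less than the SD within shHMGB2 and by more than the SD within mock.

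Among the upper enzymes HK2 stood closest to a call. HK2, the inducible hexokinase that traps glucose in the cell, had 29.5, 32.7 and 34.8 FPKM in mock and 26.4, 26.5 and 22.5 FPKM in shHMGB2. The highest knockdown library lay below the lowest mock library, and the mean differed by -22.3%, as 32.3 ± 2.67 against 25.1 ± 2.30 FPKM (SD, n = 3 each). The log2 fold change was -0.35 (SE 0.0889) and did not pass (adjusted p = 0.0587 in limma). It passed under median-of-ratios scaling, with genes filtered at a mean of 5 FPKM, and without mock replicate 1 (adjusted p = 0.0406, 0.0427 and 0.0468 in limma). HK2 did not pass without a filter (adjusted p = 0.135 in limma) or without any other single library (adjusted p in limma from 0.0996 to 0.152). In the authors' deposited table HK2 was lower, with a log2 fold change of -0.45 and an adjusted p of 4.53e-07. HK1, the constitutive hexokinase, had 41.8 to 44.3 FPKM in mock and 40.4 to 44.8 FPKM in shHMGB2.

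The other upper enzymes did not pass. GPI, which isomerises glucose 6-phosphate, had 126.0 to 133.9 FPKM in mock and 124.5 to 141.5 FPKM in shHMGB2. Of the phosphofructokinase subunits, PFKL had 56.0 to 62.9 and 58.5 to 69.9 FPKM, PFKM 68.5 to 70.4 and 68.3 to 73.3 FPKM, and PFKP 113.1 to 115.7 and 102.7 to 116.2 FPKM, mock first. ALDOA, the main aldolase, had 1235 to 1395 FPKM in mock and 1143 to 1244 FPKM in shHMGB2 (adjusted p = 0.26 in limma), and its relative ALDOC 31.5 to 32.7 and 30.2 to 32.2 FPKM. TPI1, which interconverts the triose phosphates, had 1277 to 1522 FPKM in mock and 1307 to 1392 FPKM in shHMGB2. All of these ranges overlapped.

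PFKFB3 and PFKFB4 make fructose 2,6-bisphosphate, the strongest activator of phosphofructokinase. PFKFB3 had 17.4, 17.4 and 18.4 FPKM in mock and 14.5, 16.4 and 15.1 FPKM in shHMGB2, with no overlap. Its log2 fold change was -0.20 (SE 0.0656, 95% interval -0.35 to -0.04) and did not pass (adjusted p = 0.108 in limma), while the authors' deposited table lists -0.36 with an adjusted p of 0.000366. PFKFB4 had 5.15 to 6.31 FPKM in mock and 5.49 to 6.82 FPKM in shHMGB2.

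The later enzymes did not pass. PGK1, the first ATP-yielding kinase, had 182.2, 178.0 and 175.7 FPKM in mock and 158.7, 168.3 and 158.3 FPKM in shHMGB2. PKM, the pyruvate kinase of tumour cells, had 1269, 1195 and 1164 FPKM in mock and 1122, 1061 and 1091 FPKM in shHMGB2. The groups did not overlap in either gene, the means differed by -9.43% and -9.74%, and neither passed (adjusted p = 0.134 and 0.179 in limma). Under quantile normalization the log2 fold change of PGK1 went from -0.14 to -0.07. Exons that separate the PKM1 and PKM2 forms are not resolved in a value per gene.

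ENO2, an enolase isoform that is sparse outside neurons, was at a much lower level. It had 4.73, 5.01 and 5.77 FPKM in mock and 4.26, 4.05 and 2.79 FPKM in shHMGB2, and shHMGB2 replicate 3 stood well below the other libraries. The log2 fold change was -0.40 (SE 0.137, adjusted p = 0.114 in limma) and was -0.26 without that library. GAPDH, PGAM1 and ENO1 overlapped between the groups, with log2 fold changes of -0.03, 0.06 and -0.07. GAPDH, often used as a reference gene, had a 95% interval of -0.25 to 0.18, and its log2 fold change was 0.02 under quantile normalization. Several of these enzymes have processed pseudogenes, and the sources used here do not say how shared reads were assigned.

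Pyruvate is sent to lactate by lactate dehydrogenase and kept from oxidation in mitochondria by PDK1, which switches off pyruvate dehydrogenase. LDHA, the subunit that favours lactate, had 627.4, 602.8 and 621.1 FPKM in mock and 541.0, 556.5 and 569.5 FPKM in shHMGB2. The groups were clear of each other and the within-group spread was among the smallest of the members, yet the difference of -9.95% did not pass (log2 fold change -0.15 with SE 0.0546 and adjusted p = 0.128 in limma). Under quantile normalization the log2 fold change of LDHA was -0.05. The authors' deposited table lists LDHA lower, with an adjusted p of 0.0057. LDHB, the subunit that favours pyruvate, had 1523 to 1628 FPKM in mock and 1439 to 1671 FPKM in shHMGB2. PDK1 had 10.0 to 13.4 FPKM in mock and 11.1 to 12.3 FPKM in shHMGB2.

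**Figure D3:**
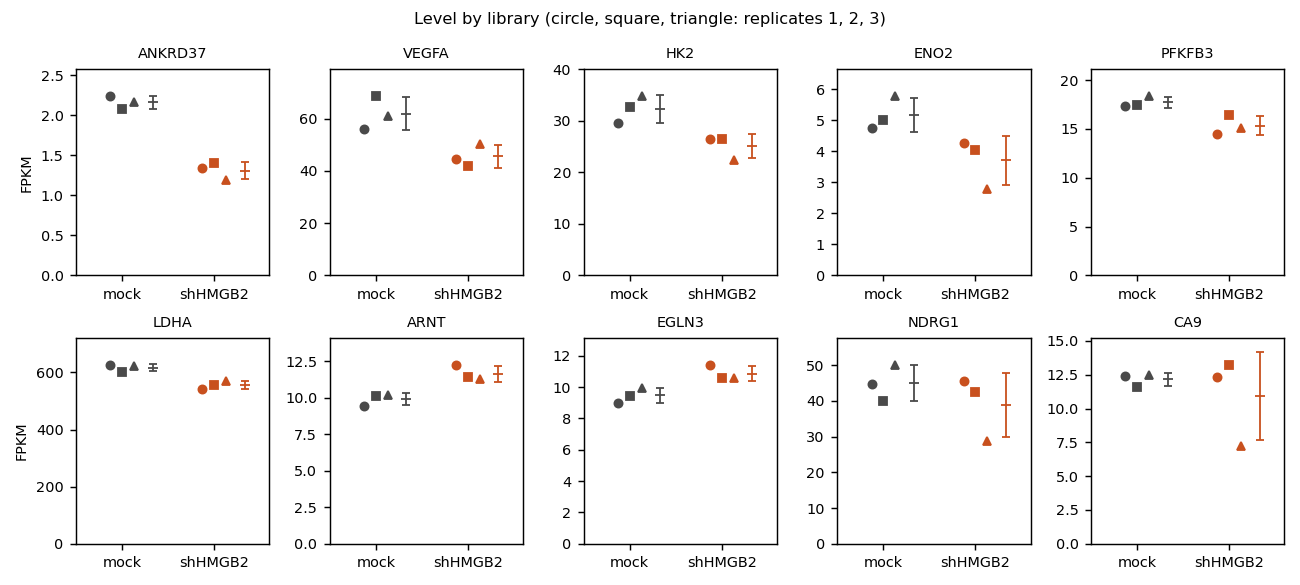
FPKM by library for 10 genes on axes from 0, with mock in grey, shHMGB2 in orange, 1 symbol per replicate, and the mean ± SD of 3 libraries beside the points. ANKRD37 and VEGFA are past the threshold; in NDRG1 and CA9, shHMGB2 replicate 3 (triangle) lies far below the other libraries, at 28.6 and 7.23 FPKM.

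Because FPKM is per length, the balance within a family of isozymes can be read inside each library, free of the scaling between libraries. Within the hexokinases HK2 made up 41.3, 43.9 and 44.0% in mock and 37.1, 39.6 and 35.4% in shHMGB2, a mean difference of -5.70 points. LDHA made up 27.8, 28.3 and 28.97% of lactate dehydrogenase FPKM in mock and 27.3, 25.9 and 25.4% in shHMGB2, a difference of -2.15 points. In both families every knockdown library lay below every mock library.

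The share of PFKP among the phosphofructokinases was 47.0 ± 0.283% in mock against 44.8 ± 0.774% in shHMGB2, and that of PFKFB3 within its pair 75.2 ± 1.79% and 71.2 ± 2.82% (SD, n = 3 each). SLC16A3 gave 1.31 ± 0.321% of its pair in mock against 0.791 ± 0.0862% in shHMGB2 (SD, n = 3 each). These 3 shares and those of HK2 and LDHA were lower without overlap, and the share of ENO1 over ENO2 was higher without overlap, by 0.0738 points. HK2, LDHA, PFKFB3, SLC16A3 and ENO2 were already lower without overlap by their own level, so these shares in part restate it. SLC16A1 and ENO1 made up 98.7% and 99.7% of their pairs in mock, so the shares of SLC16A3 and ENO2 largely restate it. SLC16A3, at 0.29 to 0.61 FPKM, was also under the filter of 1 FPKM. No rate of such splits in other gene families was taken. With shHMGB2 replicate 3 left out the ENO1 difference was 0.0482 points, and with shHMGB2 replicate 1 left out the PFKFB3 difference went from -3.95 to -2.35 points. Each of the 6 shares without overlap had p = 0.1 in an exact 2-sided permutation test, the smallest value that 3 libraries against 3 can give, and 0.15 after Benjamini-Hochberg adjustment over the 9 families. The shares of SLC2A1, ALDOA and P4HA1 overlapped between the groups (exact permutation p = 0.8, 0.3 and 0.2). This exact test therefore could not reach 0.05 for any share.

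**Figure D4:**
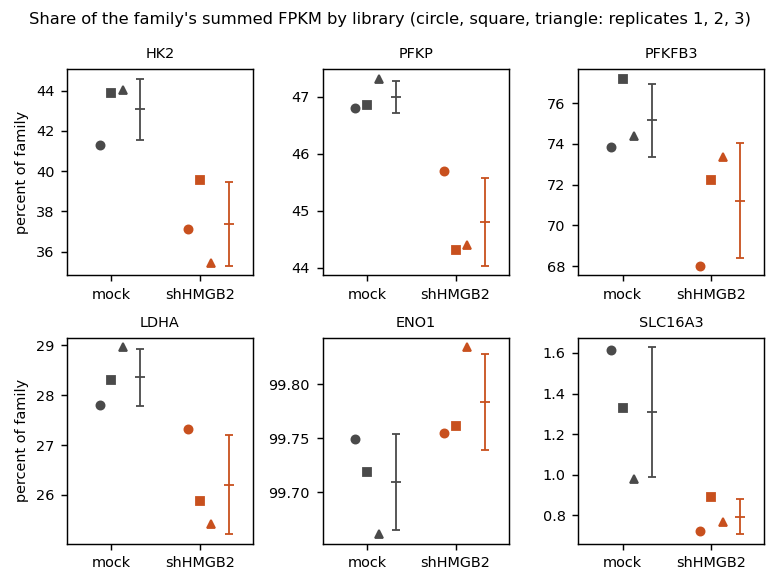
Percent of the summed FPKM of an isozyme or transporter family given by the gene named above each panel, for each of the 3 mock (grey) and 3 shHMGB2 (orange) libraries, with the mean ± SD beside the points; the 6 families shown are those whose groups did not overlap, and the vertical axes do not start at 0. HK2 takes 35.4 to 39.6% in shHMGB2 and 41.3 to 44.0% in mock.

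The messages of HIF itself did not pass. HIF1A had 112.7, 132.4 and 143.4 FPKM in mock and 123.9, 136.9 and 134.0 FPKM in shHMGB2 (95% interval of the log2 fold change -0.19 to 0.25), and EPAS1, the other alpha subunit, had 2.31 to 2.64 and 2.2 to 2.62 FPKM. ARNT, the shared partner, had 9.41, 10.1 and 10.2 FPKM in mock and 12.3, 11.4 and 11.3 FPKM in shHMGB2. Its groups did not overlap, with a log2 fold change of 0.21 (SE 0.0657, adjusted p = 0.0936 in limma). The authors' deposited table lists ARNT with an adjusted p of 0.157.

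The oxygen sensors did not pass either. EGLN3, a prolyl hydroxylase that is itself a HIF target, had 8.99, 9.45 and 9.96 FPKM in mock and 11.4, 10.6 and 10.6 FPKM in shHMGB2 (log2 fold change 0.18 with SE 0.0675 and adjusted p = 0.137 in limma). EGLN1, the main hydroxylase in normal oxygen, had 11.5 to 12.2 FPKM in mock and 12.4 to 13.7 FPKM in shHMGB2 (adjusted p = 0.278 in limma). VHL, the recognition subunit of the ligase that removes HIF, had 35.8, 46.2 and 42.7 FPKM in mock and 44.8, 43.0 and 44.1 FPKM in shHMGB2, where mock replicate 1 stood low. These differences stand beside the 21.6% of all genes that were higher without overlap.

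Of the secreted targets VEGFA fell and ADM did not pass. VEGFA, the growth factor that draws in blood vessels, lies on chromosome 6 at 43770211 to 43786487 (GRCh38.p14). It had 56.3, 68.7 and 61.0 FPKM in mock and 44.7, 41.9 and 50.5 FPKM in shHMGB2, so the closest libraries of the groups, mock replicate 1 and shHMGB2 replicate 3, were 56.3 and 50.5 FPKM. The mean went from 62.0 ± 6.26 to 45.7 ± 4.39 FPKM (SD, n = 3 each), a log2 fold change of -0.43 (SE 0.0953, adjusted p = 0.0412 in limma) and lower in 3 of 3 libraries. VEGFA passed without mock replicate 1 and did not pass without any other single library (adjusted p in limma from 0.0569 to 0.137). It also did not pass under quantile normalization, without a variance trend or without a filter on low genes (adjusted p = 0.0529, 0.0534 and 0.111 in limma). ADM, a vasodilator peptide, had 80.1 to 94.7 FPKM in mock and 85.2 to 88.3 FPKM in shHMGB2 (95% interval of the log2 fold change -0.18 to 0.15).

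ANKRD37, a small ankyrin repeat protein and a direct HIF target, fell from a low level. It lies on chromosome 4 at 185396841 to 185400723 (GRCh38.p14), and the piece of its promoter printed above carries the 2 core sites. It had 2.24, 2.08 and 2.17 FPKM in mock and 1.34, 1.40 and 1.19 FPKM in shHMGB2, tight within each group and far apart between them. The mean fell by 39.4%, as 2.16 ± 0.0802 against 1.31 ± 0.108 FPKM (SD, n = 3 each; log2 fold change -0.45 with SE 0.0855 and adjusted p = 0.0252 in limma). The fold change on the log2(FPKM + 1) scale understates a gene this low, and it was -0.69 with a pseudocount of 0.1. With any single library left out ANKRD37 did not pass (adjusted p in limma from 0.0503 to 0.0899), nor did it pass without a filter (adjusted p = 0.0694 in limma).

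The remaining targets showed no shared direction. BNIP3 and BNIP3L, receptors that mark mitochondria for removal, had log2 fold changes of -0.16 and 0.21, opposite in sign, and neither passed (adjusted p = 0.224 and 0.26 in limma). With 1 library left out BNIP3 ran from -0.24 to -0.11 and BNIP3L from 0.10 to 0.31, lowest without mock replicate 1. P4HA1 and P4HA2, the hydroxylases of collagen proline, had 32.97 to 33.99 and 8.08 to 8.38 FPKM in mock and 30.9 to 33.3 and 7.86 to 8.32 FPKM in shHMGB2. KDM3A, a histone demethylase, had 17.6, 18.7 and 18.8 FPKM in mock and 19.0, 20.3 and 19.0 FPKM in shHMGB2, higher without overlap by 0.08 on the log2 scale (adjusted p = 0.436 in limma). CA12, a membrane carbonic anhydrase, had 1.35, 1.35 and 1.71 FPKM in mock and 1.28, 1.35 and 1.00 FPKM in shHMGB2 (adjusted p = 0.373 in limma).

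In 2 well-known hypoxia markers a single library set the mean. CA9, the tumour carbonic anhydrase and a standard hypoxia marker, had 12.4, 11.6 and 12.5 FPKM in mock and 12.3, 13.3 and 7.23 FPKM in shHMGB2. NDRG1, a stress-induced gene, had 44.7, 40.02 and 50.1 FPKM in mock and 45.5, 42.4 and 28.6 FPKM in shHMGB2. Their log2 fold changes of -0.18 and -0.23 did not pass, and were 0.07 and -0.03 without shHMGB2 replicate 3. Within groups, CA9, NDRG1 and ENO2 had the largest log2 spread of the 39 tested members (SD 0.307, 0.272 and 0.202), beside a median of 0.0823 for the members and 0.105 for all genes.

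That library was low for many of the other genes too. Of the 39 tested members 14, or 35.9%, had their lowest value in shHMGB2 replicate 3, where 13.3% of all tested genes had theirs. The 14 include SLC2A1, HK2, GPI, PFKP, ALDOA, PGK1 and ENO1 beside CA9, NDRG1 and ENO2. The members' median deviation from their 6-library mean was -0.05 log2 units there, and 0.02 for all genes. In the other knockdown libraries the members' medians were 0.02 and -0.0034, and in mock replicates 1, 2 and 3 they were 0.05, 0.0074 and 0.04. shHMGB2 replicate 3 also had the smallest size factor, and the part of depth was not tested. Over all tested genes mock replicate 1 stood out, with the lowest value of 34.4% of them and of 23.1% of the members. It held the highest value of 23.5% of all tested genes and of 30.8% of the members. The part of mock replicate 1 in the counts without overlap was not tested.

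Genes of the same pathways outside the list were read in the same fit, from a list of 108 further genes, of which 102 were found and 79 tested. In limma 4 fell, 2 rose and 73 did not pass, or 5.06% and 2.53%, beside the 3.45% and 3.30% of all genes given above. The authors' deposited table lists 10 lower and 4 higher at an adjusted p under 0.05, of 84 with such a value. The 10 are 11.9%, beside 9.23% of all genes lower and 6.13% higher. The log2 fold changes of the 6 that passed in limma ran from -0.75 to 0.90.

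SLC2A12, a less studied glucose transporter, rose. It had 2.06, 2.41 and 2.40 FPKM in mock and 5.81, 5.16 and 4.48 FPKM in shHMGB2, a 2.25-fold higher mean (log2 fold change 0.90 with SE 0.102 and adjusted p = 0.00393 in limma). Its level stayed far below that of SLC2A1. SLC6A8, the creatine transporter, fell from 35.6, 32.1 and 33.8 FPKM to 20.01, 19.8 and 19.4 FPKM, with the smallest p of the 79 (log2 fold change -0.75 with SE 0.0592 and adjusted p = 0.000994 in limma). Both passed without any single library (adjusted p in limma from 0.00972 to 0.0228 and from 0.00279 to 0.00875).

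BHLHE40, a hypoxia-induced repressor that also sits in the circadian clock, fell. It went from 40.7, 37.6 and 42.2 FPKM to 30.1, 29.8 and 28.6 FPKM (log2 fold change -0.43 with SE 0.0622 and adjusted p = 0.00961 in limma). DDIT4, a stress-induced inhibitor of mTORC1, fell from 645.1, 753.3 and 650.5 FPKM to 546.5, 535.5 and 533.9 FPKM (log2 fold change -0.34, adjusted p = 0.0401 in limma). SIAH2, a ubiquitin ligase that removes EGLN enzymes, fell from 29.9, 32.1 and 27.3 FPKM to 22.5, 21.0 and 23.9 FPKM (log2 fold change -0.39, adjusted p = 0.0324 in limma). PLOD2, a lysyl hydroxylase that prepares collagen for cross-linking, rose from 13.4, 14.3 and 16.3 FPKM to 18.9, 21.1 and 19.1 FPKM (log2 fold change 0.40, adjusted p = 0.0372 in limma). In all 4 genes the groups did not overlap.

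These calls are less firm than those of the transporters. BHLHE40 did not pass without shHMGB2 replicate 3 (adjusted p = 0.0517 in limma). DDIT4 did not pass without mock replicate 2 or without any shHMGB2 library (adjusted p in limma from 0.113 to 0.136), nor under quantile normalization, where its log2 fold change was -0.23 (adjusted p = 0.128 in limma), nor without a variance trend (adjusted p = 0.0516 in limma). Without a filter DDIT4, SIAH2 and PLOD2 did not pass (adjusted p = 0.107, 0.0842 and 0.0952 in limma). SIAH2 and PLOD2 passed without mock replicate 3 and did not pass without any other single library (adjusted p in limma from 0.0623 to 0.118 and from 0.0659 to 0.133).

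**Figure D5:**
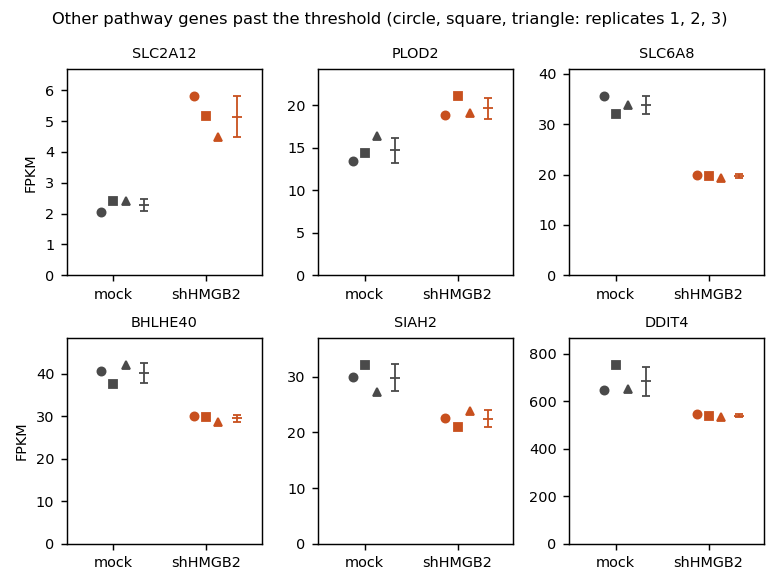
FPKM by library, on axes from 0, for the 6 pathway genes outside the list that passed the threshold, with mock in grey, shHMGB2 in orange and the mean ± SD of 3 libraries beside the points. SLC2A12 and PLOD2 are higher in shHMGB2, and SLC6A8, BHLHE40, SIAH2 and DDIT4 are lower, without overlap.

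Genes that lead pyruvate or glucose elsewhere did not pass in limma. Of 13 tested genes of mitochondrial pyruvate entry 0 passed, 3 were higher and 0 lower at an unadjusted p under 0.05, and 1 was higher in the authors' deposited table. PDPR, a regulator of pyruvate dehydrogenase phosphatase that has a near-identical copy and is uncertain, came nearest, with 13.9, 16.0 and 18.0 FPKM in mock and 23.0, 20.2 and 19.2 FPKM in shHMGB2 (adjusted p = 0.0795 in limma). Of 7 pentose phosphate genes 0 passed, 1 was higher and 0 lower at an unadjusted p under 0.05, and 0 passed in the authors' deposited table. RPIA, which interconverts pentose phosphates, was nearest, with 21.0, 17.9 and 18.6 FPKM in mock and 21.3, 22.8 and 22.1 FPKM in shHMGB2 (adjusted p = 0.138 in limma). Beside these counts stand 2257 higher and 1488 lower of all 13409 tested genes at an unadjusted p under 0.05. At an adjusted p under 0.05, the authors' deposited table lists 6.13% of all genes with such a value as higher and 9.23% as lower.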

How the data were processed

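RNA-seq of 3 mock and 3 shHMGB2 KYSE450 libraries was read from 1 table. The authors deposited FPKM per gene and library with 2 decimals, a normalized signal per group, a log2 fold change, a p-value and an adjusted p-value, per the file headers; the sources used here do not name filters or the test. The submitters' processing notes list Bowtie2 2.2.5, RSEM 1.2.12 and hg38 and give no roles. The table holds no counts per library, so no count test was run. The 13409 genes averaging 1 FPKM or more were fitted on log2(FPKM + 1) by group, using limma 3.58.1 (R 4.3.3) with its trended variance; p-values, 2-sided, were adjusted by Benjamini-Hochberg over these genes, and 0.05 was the threshold. Isozyme shares used exact permutation tests (scipy 1.17.1). The fit was tested on simulated data. Alternatives were other pseudocounts, filters, scalings, variance settings, a replicate block and leaving out each library. Size factors came from the deposited group signal of genes seen in 1 library, which was a whole multiple of 1 step in 100% of cases (tolerance 0.01). Depth per library in reads is unknown.

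Members, role lists, markers and tests were chosen with earlier results of these data known. Values are given in full for members past the threshold and, in each role list without one, for the member with the smallest p; the other pathway lists follow the same rule. NDRG1, CA9, PGK1, PKM, EGLN1 and others were described in more detail after their values were seen. Promoter windows and gene positions are from RefSeq on GRCh38.p14, and exons from GENCODE.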

Additional observations from a re-analysis of the deposited data

How the results depend on the processing

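The limma fit called 442 genes higher and 463 lower. Without a filter it called 167 and 245, with library weights 2436 and 1758, at an adjusted p of 0.10 1156 and 878, and the authors' deposited table gives 833 and 1254. Median-of-ratios scaling gave 349 and 571, or 37.9% higher against 48.8%. No scaling moved the median of all genes by over 0.1. With 1 library left out the counts ran from 97 to 449 higher and from 193 to 446 lower. The total fell from 905 to 327 without mock replicate 2, and to 320, 290 and 311 without shHMGB2 replicates 1, 2 and 3.

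Members lower, 2 in the fit as reported, were 0 without a filter, 1 under quantile normalization and without a variance trend, 9 with library weights, 8 in the authors' deposited table and 0 to 2 with 1 library left out. Members higher, 0 as reported, were 2 with library weights and 1 at an adjusted p of 0.10. Of all 13409 genes, library weights called 2436 higher and 1758 lower, and an adjusted p of 0.10 called 1156 higher and 878 lower. The weights ran from 0.246 for mock replicate 1 to 6.04 for mock replicate 2. Other pathway genes higher, 2 as reported, were 1 without a filter, 12 with library weights, 4 in the authors' deposited table, 6 at an adjusted p of 0.10 and 1 to 3 with 1 library left out. Those lower, 4 as reported, were 2, 13, 10 and 9 in the same order, 7 under median-of-ratios scaling and 1 to 6 with 1 library left out. The cause of these shifts was not tested.

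The replicate numbers did not pair the libraries: same-numbered deviations correlated at -0.0116, -0.0377 and -0.0959. With the replicate block, 138 genes were higher and 234 lower, members gave 0 lower (VEGFA 0.0879 and ANKRD37 0.0849 as adjusted p in limma), and other pathway genes 1 higher and 2 lower.

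Small log2 fold changes changed sign. Under quantile normalization SLC2A1 was 0.0257, PFKP 0.0104, TPI1 0.0555, GAPDH 0.0226 and ADM 0.0256. With library weights SLC2A1 was 0.0712 and VHL -0.0546. Under median-of-ratios scaling GPI was -0.0262, PFKM -0.0213, LDHB -0.0322 and HIF1A -0.00855. The authors' deposited table lists SLC16A1 at -9.5e-05, GPI at -0.0472, PFKM at -0.0449, PGAM1 at -0.0146, LDHB at -0.0695, PFKFB4 at -0.0122, HIF1A at -0.0331 and VHL at -0.0453. With 1 library left out, values ran from -0.108 to 0.0216 for SLC2A1, -0.0663 to 0.00559 for HK1, -0.0445 to 0.0471 for GPI, -0.0118 to 0.0393 for PFKM and -0.0825 to 0.0441 for TPI1. They ran from -0.0874 to 0.0324 for GAPDH, -0.0417 to 0.0664 for LDHB, -0.0101 to 0.14 for PFKFB4, -0.0666 to 0.106 for HIF1A and -0.078 to 0.0132 for EPAS1. The ranges were -0.0144 to 0.165 for VHL, -0.0737 to 0.0455 for ADM, -0.331 to 0.0655 for CA9 and -0.026 to 0.0106 for P4HA2. The SLC2A1 share difference ran from -0.0521 to 0.0148 points. The reads behind each FPKM value are unknown, so counting error was not given.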
